A study of Mus musculus with 6 samples.

Results

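The sarcomere is the repeating contractile unit of striated muscle, and 35 of the genes that build it were examined in gastrocnemius muscle, a calf muscle made mostly of fast-twitch fibers. The members were taken from a list of 35 thin, thick and giant filament genes with their assembly factors, were matched by gene symbol, and all 35 are among the 12353 genes of the deposited table. RNA from 3 wild-type mice (Nogo+/+, Samples 1 to 3) was compared with RNA from 3 Nogo knockout mice (Nogo-/-, Samples 4 to 6), with 1 polyA library per mouse. The knockout is not described as restricted to a tissue, so fibers and the other cells of the muscle may both lack Nogo, and the age and sex of these mice and the hour of tissue collection are not given in the sources used here. Both groups were kept under 12 h light-dark cycles with free access to water. Levels are FPKM, the fragments of a gene scaled for transcript length and library depth. Differences are log2 fold changes of Nogo-/- over Nogo+/+ on the scale log2(quantile-normalized FPKM + 1), where quantile normalization gives every library the same distribution of values, and a gene is called changed when its adjusted p in limma is under 0.05.

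Depth was similar across libraries, at about 13500000 to 14600000 fragments as recovered from the steps of low values. *Rtn4*, the gene of all Nogo isoforms, lay at 414, 429 and 425 FPKM in Nogo+/+ and at 0.423, 0.312 and 0.368 FPKM in Nogo-/- muscle, which matches the genotype given to each column. All 7 listed markers of skeletal muscle fibers were measured, at a summed 26899 to 27483 FPKM in Nogo+/+ and 25538 to 27167 FPKM in Nogo-/- libraries. They include the members *Acta1* and *Tnnt3*, so this sum is not independent of the members. Markers of some other tissues moved with the groups or with 1 library. The 5 endothelial markers summed to 103 to 115 FPKM in Nogo+/+ and to 72.6 to 87.4 FPKM in Nogo-/- muscle, with 4 called lower. The 4 measured of 5 smooth muscle markers summed to 121 to 131 and 75.4 to 107 FPKM, with 1 called lower. Of all genes, 2.75% were called lower. Adipocyte markers (7 of 7 measured) summed to 403 to 486 FPKM in Nogo+/+ and 464 to 896 FPKM in Nogo-/- muscle, the highest in Sample 4. Skin markers (8 of 8) stayed at 6.56 to 19.2 FPKM in every library but Sample 6, where they reached 291. Satellite cell markers (2 measured of 5, *Chodl* and *Vcam1*) summed to 6.38 to 7.41 and 8.32 to 9.33 FPKM, without overlap. Neither gene was called (limma adjusted p = 0.134 and 0.448), and 15.9% of all genes were higher in Nogo-/- without overlap. The 6 Schwann cell, 6 tendon, 4 leukocyte and 3 immature fiber markers that were measured had overlapping sums and none was called. The immature fiber markers include the member *Myh3*. Of 12 clock genes, 7 were called higher and 4 lower, beside 1.89% and 2.75% of all genes. The clock activator gene *Arntl* was at 15.6, 15.2 and 14.95 FPKM in Nogo+/+ and 2.198, 1.33 and 1.41 FPKM in Nogo-/- muscle. The clock output gene *Dbp* was at 16.4, 15.3 and 17.5 and 149, 167 and 145 FPKM. The part of these markers and clock genes in the results below was not tested. In whole muscle, fewer cells of a type and less RNA per cell cannot be told apart.

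In the sarcomere, thin filaments of actin, regulated by tropomyosin and the troponin complex, slide past thick filaments of myosin. Calcium bound to troponin C moves tropomyosin and frees actin for myosin heads, and phosphorylation of the regulatory light chain by myosin light chain kinases increases force. The giant protein titin spans the sarcomere from Z-disc to M-band, nebulin lies along the thin filament, and myomesins cross-link the thick filaments at the M-band. Many of these proteins exist as fast, slow and developmental or cardiac paralogs, so their balance follows fiber type and maturation.

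The contractile transcripts were abundant in every library. A mean above 1000 FPKM was reached by 8 members, and 5 of the 10 most abundant genes of the whole table were members. Skeletal actin *Acta1* was the second and fast troponin T *Tnnt3* the third most abundant gene in all 6 libraries. Quantile normalization assigns those ranks fixed values, so both have a log2 fold change of 0 there whatever their deposited FPKM. At the low end, 4 members stayed under a mean of 15 FPKM, namely *Myl4*, *Tnnt2*, *Myh7b* and *Myh3*. Across the 6 libraries the coefficient of variation was under 10% for 26 members, from 2.25% for the chaperone gene *Cryab* to 34.97% for the kinase gene *Mylk4*.

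**Figure D1:**
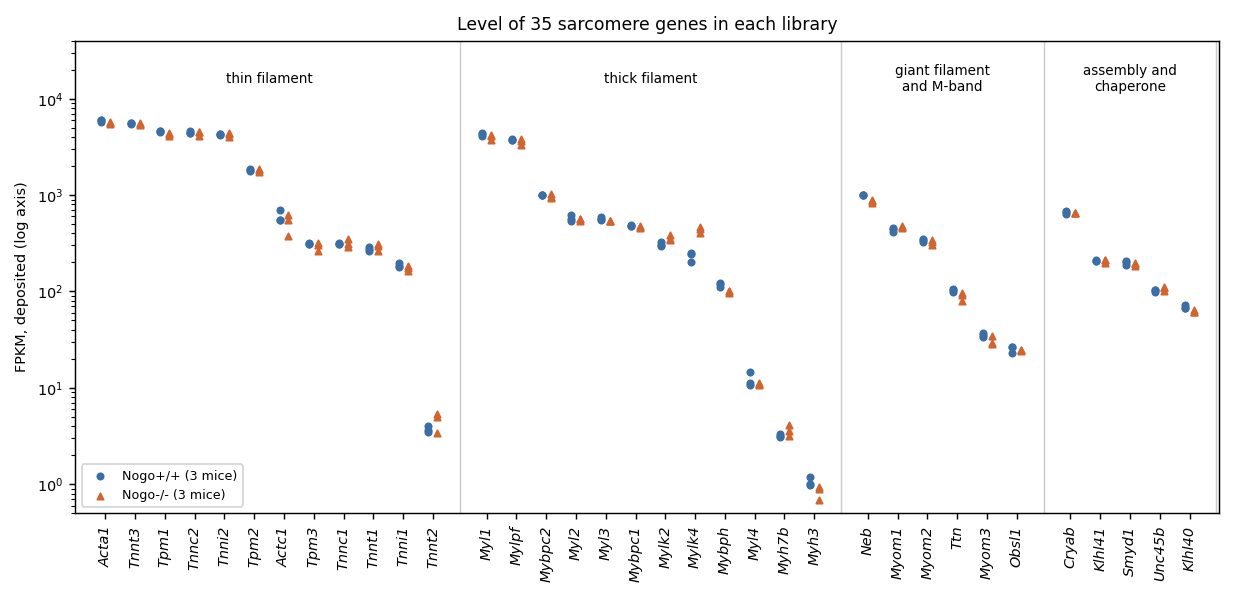
Deposited FPKM (log axis) of the 35 members in each library, grouped by filament and ordered by Nogo+/+ mean, with circles for Nogo+/+ and triangles for Nogo-/- mice (3 each). Levels run from about 1 FPKM for *Myh3* to over 5000 FPKM for *Acta1* and *Tnnt3*, and the symbols of both groups nearly coincide for most genes, whereas those of *Mylk4* are clearly apart.

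Of the 35 members, 1 rose and 1 fell in Nogo-/- muscle and 33 did not pass. *Mylk4* rose (background 1.89% of all 12353 genes called higher) and *Mybph* fell (background 2.75% called lower). Together they are 5.71% of the members, beside 4.64% called among all genes. At an unadjusted p under 0.05 there were 13 members, 2 higher and 11 lower, or 37.1% of the members beside 20.5% of all genes (8.91% higher and 11.6% lower). The median log2 fold change was −0.05 over the members and −0.01 over all genes, and 24 members were below 0 (background 52.0%). These counts include *Acta1* and *Tnnt3*, which quantile normalization fixes at 0, so they could be neither called nor below 0. After scaling on genes outside the sarcomere lists 28 members were below 0. The medians there were −0.09 over the members and 0.00024 over all genes. In deposited FPKM, the groups did not overlap for 3 members that were higher (background 15.9%) and 7 that were lower in Nogo-/- (background 10%). One of the latter is *Myh3*, which reached the 1 FPKM of the table only through Nogo+/+ libraries, so it lends this count nothing. Without it 6 remain, and 23 of 34 members are below 0 on quantile-normalized values. The lowest value of a member was most often in Sample 4 or Sample 5, with 13 members each.

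**Figure D2:**
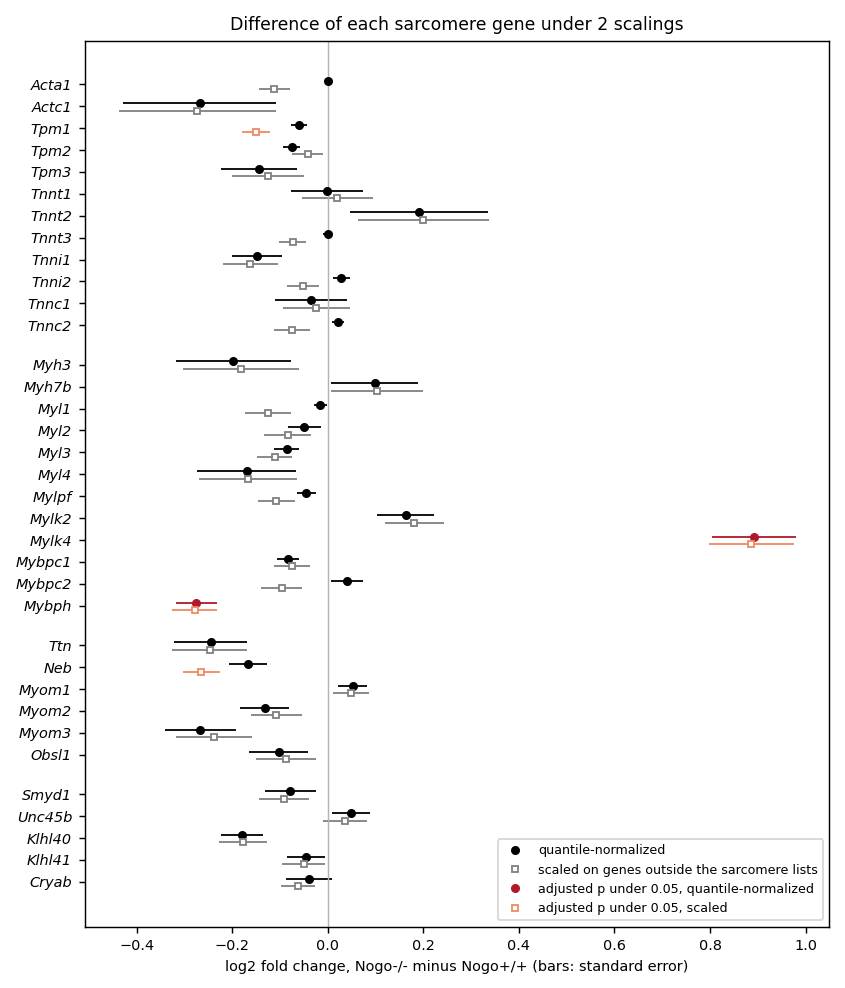
log2 fold change of each member with its standard error, on quantile-normalized values (filled circles) and after scaling on genes outside the sarcomere lists (open squares), with calls in red and orange. *Mylk4* stands alone on the right at 0.89, *Mybph* is called on the left at −0.28 under both scalings, and *Neb* and *Tpm1* are called only under the second.

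Among thick filament genes, the clearest difference was in a myosin light chain kinase. *Mylk4*, a kinase gene of the myosin light chain kinase family, lies on the minus strand of chromosome 13 from 32700834 to 32783954 (GRCm38). Its FPKM was 204, 243 and 249.6 in the Nogo+/+ mice and 403, 471 and 449.7 in the Nogo-/- mice. Every Nogo-/- muscle was thus above every Nogo+/+ muscle, and the mean rose 1.90-fold from 232 ± 24.8 (SD, n = 3) to 441 ± 34.9 (SD, n = 3). The log2 fold change was 0.89 (SE, standard error, 0.09, limma adjusted p = 0.00111). It passed in all 12 alternative settings, between 0.79 and 0.97. With a longest transcript of 5571 bases these levels correspond to at most about 15665 to 38348 fragments per library. At counts of this order, counting error is a minor part of the spread.

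*Mylk2*, the gene of the skeletal muscle kinase that phosphorylates the regulatory light chain, had 329, 294 and 305 FPKM in Nogo+/+ and 339, 389 and 354 FPKM in Nogo-/- muscle. The groups did not overlap, but the log2 fold change of 0.16 (SE 0.06) did not pass (adjusted p = 0.174), and without Sample 5 it was 0.10 (adjusted p = 0.312). The *Mylk4* to *Mylk2* ratio of FPKM, which a single scaling factor per library cannot alter, was 0.619, 0.827 and 0.819 in Nogo+/+ and 1.19, 1.21 and 1.27 in Nogo-/- muscle. The order of the kinase levels was therefore turned, with *Mylk2* above *Mylk4* in each Nogo+/+ library and below it in each Nogo-/- library. A two-sided exact permutation test of this ratio, chosen after its values were seen, gave p = 0.1, the lowest value possible with 3 mice per group. Of 5 other genes of light chain kinases and of the opposing phosphatase that were measured, none passed, with a median log2 fold change of −0.16. The phosphatase subunit gene *Ppp1r12b* was at 55.8, 58.7 and 56.5 FPKM in Nogo+/+ and 45.1, 53.4 and 51.2 in Nogo-/- muscle, which do not overlap, with a log2 fold change of −0.23 (adjusted p = 0.122). Its paralogs *Ppp1r12a* (−0.22, adjusted p = 0.146) and *Ppp1r12c* (0.16, adjusted p = 0.286) had overlapping groups, and the smooth muscle kinase gene *Mylk* lay at 5.42 to 7.27 FPKM throughout.

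*Mybph*, the gene of myosin-binding protein H, a relative of myosin-binding protein C on the thick filament, was the member that fell. It lies on the plus strand of chromosome 1 from 134193448 to 134201232. Its FPKM was 123, 111 and 120.1 in Nogo+/+ and 102, 101 and 95.8 in Nogo-/- muscle, with no overlap. The Nogo-/- mean was 84.6% of the Nogo+/+ mean, with a log2 fold change of −0.28 (SE 0.04, limma adjusted p = 0.0109). The call was lost without Sample 3 (adjusted p = 0.0664) and in limma without a mean-variance trend (adjusted p = 0.0563), while the fold change stayed between −0.31 and −0.24 in all settings. The larger paralogs differed less. The slow form *Mybpc1* ranged over 474 to 491 FPKM in Nogo+/+ and 456 to 482 in Nogo-/- muscle (log2 fold change −0.08, adjusted p = 0.0973). For the fast form *Mybpc2* the ranges were 996 to 1009 and 924 to 1018 FPKM, and its log2 fold change was 0.04 on quantile-normalized values and −0.10 after scaling on other genes, past the threshold in neither.

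The 250 bases before the annotated start of these genes, the only called members, are shown to place short promoter motifs. They are from RefSeq on GRCm38.p6, 5′ to 3′ on the strand of the gene, at chr13:32783965-32784214 for *Mylk4* and chr1:134193198-134193447 for *Mybph*. Capitals mark matches on either strand to the E-box CANNTG, bound by factors of the MyoD family and by clock factors, the MCAT motif CATTCC, bound by TEAD factors, the TATA motif TATAAA and the nuclear receptor half-site AGGTCA.
Mylk4: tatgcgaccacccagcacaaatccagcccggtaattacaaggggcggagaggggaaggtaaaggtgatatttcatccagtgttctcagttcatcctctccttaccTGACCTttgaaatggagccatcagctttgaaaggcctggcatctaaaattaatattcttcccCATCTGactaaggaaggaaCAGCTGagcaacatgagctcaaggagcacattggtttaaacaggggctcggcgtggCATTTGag
Mybph: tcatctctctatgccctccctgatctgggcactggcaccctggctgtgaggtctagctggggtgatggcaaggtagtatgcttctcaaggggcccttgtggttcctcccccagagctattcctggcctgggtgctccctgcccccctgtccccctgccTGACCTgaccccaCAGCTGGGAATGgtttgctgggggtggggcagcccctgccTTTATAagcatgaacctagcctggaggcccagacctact
*Mylk4* holds 3 E-boxes at 83, 64 and 8 bases before the start and 1 half-site at 145. *Mybph* holds 1 E-box at 79 bases, running on into 1 MCAT match at 73, with 1 TATA match at 39 and 1 half-site at 92. An E-box was in 66.2% of all 32851 RefSeq windows of this length, MCAT in 12.6%, TATA in 12.4% and the half-site in 14.0%. RefSeq windows matched 29 of the 35 members, 26 of them with at least 1 E-box, 8 with MCAT, 7 with TATA and 5 with the half-site. Some members have more than 1 window. Counted by window, as for all genes, the shares of the 33 member windows were 90.9%, 24.2%, 21.2% and 15.2% in this order. The E-box CACGTG that clock factors prefer, also counted under CANNTG, was in 2 members, but in neither sequence above. It was in 6.06% of member windows and in 6.02% of all windows. A match says only that the letters are present, and start site usage was not measured.

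The myosin light chains, which wrap the lever arm of the myosin head, did not pass in any case. The fast essential chain *Myl1* lay at 4121, 4400.2 and 4284 FPKM in Nogo+/+ and 4251, 3712 and 4129 in Nogo-/- muscle, with Sample 5 the lowest. The fast regulatory chain *Mylpf* shared this low value in Sample 5, with 3745, 3802 and 3724 FPKM against 3777, 3345 and 3642. Without Sample 4 *Mylpf* was called lower (log2 fold change −0.06, adjusted p = 0.0452), whereas with all libraries it was at −0.04 (adjusted p = 0.249). The slow chains were lower, *Myl2* at 536 to 619 and *Myl3* at 539.9 to 596 FPKM over all libraries. *Myl3* was 596, 567 and 550.3 FPKM in Nogo+/+ and 545, 539.9 and 545 in Nogo-/- muscle, which do not overlap, but it did not pass (log2 fold change −0.09, adjusted p = 0.11). The atrial and embryonic chain *Myl4* was at 10.7 to 14.6 FPKM, the highest value being in Sample 1.

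Embryonic myosin heavy chain *Myh3*, a marker of immature fibers, was near the detection limit of the table. Its values were 1.196, 1.01 and 0.970 FPKM in Nogo+/+ and 0.901, 0.687 and 0.932 in Nogo-/- muscle. By its longest annotated transcript this is at most about 60 to 100 fragments per library. Its log2 fold change of −0.20 (SE 0.12) did not pass (limma adjusted p = 0.408). No Nogo-/- library reached 1 FPKM, the level a gene needs in at least 1 library to be in the table, so *Myh3* is there only through the group in which it is higher and its difference is given as a description. The slow-tonic heavy chain *Myh7b* was at 3.11 to 4.13 FPKM with overlapping groups. It overlaps *Trpc4ap* on the opposite strand, at a mean of 51.2 FPKM, and since the strand setting of the counting is not given, shared fragments cannot be told apart there.

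Thin filament genes held the highest levels, and none of the 12 passed. For *Acta1* and *Tnnt3* this was fixed in advance, as quantile normalization gives each the same value in every library. *Acta1* was at 6028, 6002 and 5740.1 FPKM in Nogo+/+ and 5664, 5441 and 5804 in Nogo-/- muscle, overlapping, with a deposited mean at 95.2% of Nogo+/+. After scaling on genes outside the sarcomere lists its log2 fold change was −0.11 (adjusted p = 0.104). Cardiac actin *Actc1*, the fetal form, varied most among the thin filament genes expressed above 10 FPKM, with 697, 546 and 552 FPKM in Nogo+/+ and 549, 380.3 and 619 FPKM in Nogo-/- muscle. Its lowest value was in Sample 5 and its highest in Sample 1. Both actins have nearly the same coding sequence, so the division of fragments between them is uncertain.

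The tropomyosins lie along actin and block or free the myosin sites. *Tpm1* was 4604, 4662 and 4567 FPKM in Nogo+/+ and 4383, 4088 and 4355 in Nogo-/- muscle, lower in all 3 knockouts, with a log2 fold change of −0.06 (SE 0.02, adjusted p = 0.0803). Scaled on genes outside the sarcomere lists it was called lower, at −0.15 (adjusted p = 0.0292). *Tpm2* had 1868, 1806 and 1765 FPKM against 1833, 1752 and 1848, means of 1813 and 1811 that differ by less than either SD. Its log2 fold change on quantile-normalized values was nonetheless −0.08 (adjusted p = 0.0556) and was −0.0021 without quantile normalization, so this value rests on the scaling. The slow form *Tpm3* ranged over 308 to 320.0 FPKM in Nogo+/+ and 262 to 321 in Nogo-/- muscle, lowest in Sample 4.

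Troponin is the calcium switch of the thin filament, and none of its subunit genes passed. *Tnnt3*, fixed at 0 by quantile normalization, could not pass there, and after scaling on other genes it was at −0.07 (limma adjusted p = 0.207). Its fast genes were at 5281 to 5654 FPKM for *Tnnt3*, which anchors the complex to tropomyosin, 4038 to 4393 for the inhibitory *Tnni2* and 4109 to 4575 for the calcium sensor *Tnnc2*, all with overlapping groups. For *Tnni2* and *Tnnc2* the sign of the difference turned with the scaling, from 0.03 and 0.02 on quantile-normalized values to −0.05 and −0.08 after scaling on other genes. The slow genes were at 261 to 312 FPKM for *Tnnt1*, 163 to 199 for *Tnni1* and 288 to 350.0 for *Tnnc1*. Slow *Tnni1* had the largest of these differences, with 199, 180.3 and 185 FPKM in Nogo+/+ and 163, 174 and 182 in Nogo-/- muscle, and did not pass (log2 fold change −0.15, adjusted p = 0.167). Without Sample 4 it was −0.097 (adjusted p = 0.297). Cardiac *Tnnt2*, a form of developing muscle, was at 3.66, 3.46 and 3.97 FPKM against 3.43, 5.32 and 4.99. By its longest annotated transcript this is at most about 156 to 258 fragments per library. *Tnnt3* overlaps the antisense *Prr33* (mean 118 FPKM), and *Tnnc1* overlaps *Nisch* on the opposite strand (mean 38.7 FPKM), with the same limit on strand.

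The giant filaments were lower in Nogo-/- muscle in deposited FPKM without passing the test on quantile-normalized values. Nebulin *Neb* lies on chromosome 2 from 52136647 to 52378474, minus strand. Its FPKM was 991, 996 and 1008 in Nogo+/+ and 819, 862 and 883 in Nogo-/- muscle, a Nogo-/- mean of 85.6% with no overlap. The log2 fold change was −0.17 (SE 0.04, adjusted p = 0.0559). Without quantile normalization it was called at −0.22 (adjusted p = 0.0102), with median-of-ratios factors at −0.26 (adjusted p = 0.0207), and after scaling on genes outside the sarcomere lists at −0.26 (adjusted p = 0.00848). Under this last scaling 3 members were called lower, *Neb*, *Tpm1* and *Mybph*, beside 2.54% of all genes. Of the 6 fits that leave out 1 library, it was called only without Sample 6 (−0.20, adjusted p = 0.0279), and it was −0.11 without Sample 4 (adjusted p = 0.106). In limma without a trend the adjusted p was 0.221. The *Neb* to *Acta1* ratio, chosen after its values were seen, was 0.164 to 0.176 in Nogo+/+ and 0.145 to 0.159 in Nogo-/- muscle, with p = 0.1 in a two-sided exact permutation test.

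Titin *Ttn*, also on the minus strand of chromosome 2, from 76703980 to 76982547, had 106, 103 and 99.7 FPKM in Nogo+/+ and 78.9, 96.0 and 92.8 in Nogo-/- muscle. These groups do not overlap either, the lowest value being in Sample 4, and the log2 fold change of −0.25 (SE 0.08) did not pass (adjusted p = 0.124). Without Sample 4 it was −0.15 (adjusted p = 0.129). The FPKM of *Ttn* sum 25 annotated transcripts, so a change in isoform and a change in amount cannot be told apart. Transcript length moved with the differences across the whole table. The median log2 fold change of protein-coding genes was 0.04 for longest transcripts under 2000 bases (2484 genes), −0.01 up to 5000, −0.05 up to 10000 and −0.07 up to 20000 bases (251 genes), and −0.15 for the 10 genes beyond. Without Sample 4 the values for these classes were 0.03, −0.0047, −0.045, −0.045 and −0.12, so the third and the fourth class did not differ there. With any of the other libraries left out the medians fell from class to class, as with all of them. *Neb* and *Ttn*, with transcripts of 22489 and 106824 bases, are in this last class. The part of length in the *Neb* and *Ttn* differences was not tested.

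**Figure D3:**
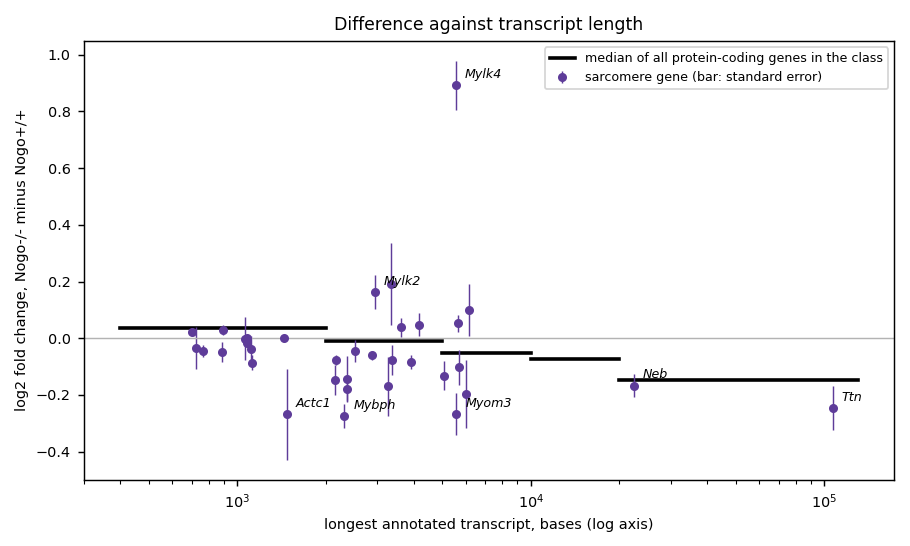
log2 fold change of each member (points, with standard error) against its longest annotated transcript in bases (log axis), with the median of all protein-coding genes in each length class as black lines. The class medians lie between 0.04 and −0.15, lower in each longer class (without Sample 4 the third and the fourth were both −0.045). *Neb* (−0.17) and *Ttn* (−0.25) lie below the last median, of a class of 10 genes that includes both. *Mylk4* lies far above its class.

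At the M-band, where myomesins tie thick filaments together, *Myom1*, of all fibers, was at 451, 415 and 448 FPKM in Nogo+/+ and 463, 474 and 459 in Nogo-/- muscle, slightly higher in all 3 knockouts, and did not pass (adjusted p = 0.377). It overlaps *Myl12a* on the opposite strand (mean 195 FPKM), with the limit on strand given above. Fast-fiber *Myom2* was at 328 to 346 FPKM in Nogo+/+ and 300.5 to 338 in Nogo-/- muscle. *Myom3* was 35.6, 33.9 and 37.4 FPKM against 28.7, 34.7 and 29.5, with Sample 5 inside the Nogo+/+ range. Its log2 fold change of −0.27 (SE 0.07) had an adjusted p of 0.0909 in limma. Of the 6 fits that leave out 1 library, it was called only without Sample 5 (−0.34, adjusted p = 0.0335), and it was −0.21 without Sample 4 (adjusted p = 0.199). *Obsl1*, which links titin to myomesin, ranged over 23.1 to 26.6 FPKM. Over these 6 giant filament and M-band genes the median log2 fold change was −0.15.

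Factors that fold and maintain the filaments showed small differences, and none of the 5 passed. *Klhl40*, which stabilizes nebulin, was 66.6, 67.7 and 72.0 FPKM in Nogo+/+ and 61.1, 64.4 and 61.6 in Nogo-/- muscle, lower without overlap, with a log2 fold change of −0.18 (SE 0.04, adjusted p = 0.0608). Its relative *Klhl41* was at 199 to 214 FPKM. The myosin chaperone *Unc45b* was at 99.1 to 111 FPKM, its partner methyltransferase *Smyd1* at 184 to 206 and the small heat shock protein gene *Cryab* at 639 to 679, all with overlapping groups. *Cryab* overlaps *Hspb2* on the opposite strand (mean 104 FPKM), again with the limit on strand.

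**Figure D4:**
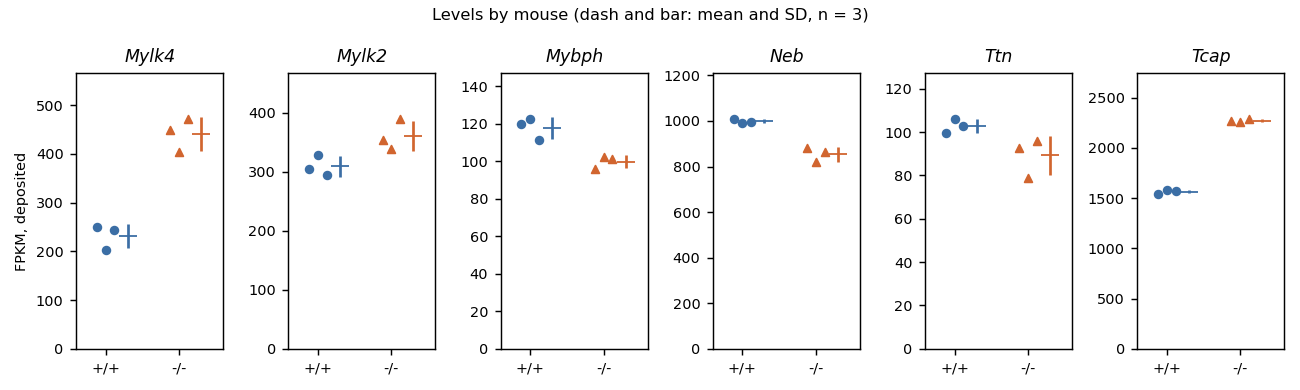
Deposited FPKM (axis from 0) of 6 genes by mouse, with the mean and SD of each group (n = 3) beside the points. The groups are apart in all panels, most widely for *Mylk4* and for the titin-cap gene *Tcap*.

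Set by fiber type, the fast members had a median log2 fold change of 0.01 (6 genes), the slow members −0.07 (8 genes) and the developmental or cardiac members other than *Myh3* −0.22 (4 genes). After scaling on other genes these medians were −0.09, −0.08 and −0.22. Of all these members only *Mybph* passed. It was listed in the last group, with *Actc1*, *Tnnt2* and *Myl4*, and this placing is not a result of these data. The median of that group includes *Mybph*. The rest of it was at −0.27 for *Actc1*, −0.17 for *Myl4* and 0.19 for *Tnnt2*, all with overlapping groups, so the group did not move as a whole. Within 8 sets of paralogs the slow share of slow plus fast FPKM overlapped between the groups. It was 4.59% to 4.97% in Nogo+/+ and 4.54% to 5.32% in Nogo-/- muscle for troponin T, 3.98% to 4.51% and 3.58% to 4.14% for troponin I, and 6.35% to 6.75% and 6.03% to 7.24% for troponin C. For myosin-binding protein C (*Mybpc1* against *Mybpc2*) it was highest, at 32.1% to 32.7% and 32.1% to 33.1%. The placing of each gene as slow or fast was given with the sets and was not tested here, so a share need not measure slow fibers. The essential and regulatory light chains, tropomyosin (*Tpm3* against *Tpm1* and *Tpm2*) and the adult heavy chains (*Myh7* against *Myh1*, *Myh2* and *Myh4*) fell between 4.05% and 14.2% in all libraries. Exact permutation tests gave p from 0.3 to 1 (two-sided, adjusted 0.8 to 1 over 8 sets).

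**Figure D5:**
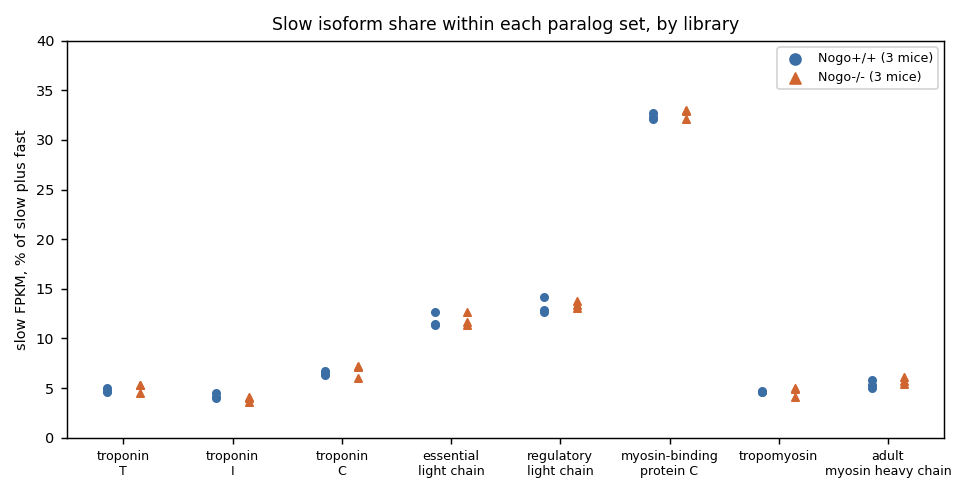
Slow isoform FPKM as a percentage of slow plus fast FPKM in 8 paralog sets, with circles for Nogo+/+ and triangles for Nogo-/- mice (3 each). The symbols of both genotypes overlap in every set, and myosin-binding protein C stands highest at about 32%.

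Together the members took 10.6%, 10.8% and 10.5% of all FPKM in Nogo+/+ and 10.1%, 9.82% and 10.4% in Nogo-/- libraries, without overlap. The difference of the means was −0.52 percentage points, with p = 0.1 in a two-sided exact permutation test, the smallest possible, and 0.167 after adjustment over 10 shares. Thin filament genes took most of this, 6.90% to 7.15% and 6.47% to 6.89%, followed by thick filament genes at 2.78% to 2.86% and 2.6% to 2.76%, and the giant filament and M-band genes at 0.473% to 0.487% and 0.413% to 0.449%. The share of each of these groups was lower in all 3 knockouts, as was that of the fast members. The shares of the slow, developmental and assembly groups overlapped. In summed FPKM the thin, thick and fast groups overlapped. So did all members together, at 42373 to 43289 in Nogo+/+ and 39758 to 42538 in Nogo-/- libraries. The giant filament and M-band sums did not, at 1898 to 1966 and 1715 to 1827. This sum and share mainly follow *Neb*, with means of 998 FPKM in Nogo+/+ and 855 FPKM in Nogo-/- muscle. The means of *Ttn* were 103 and 89.2 FPKM, and those of *Myom1* went the other way, at 438 and 465 FPKM. The total FPKM by which a share is divided was 401164 to 404869 and 404986 to 415485. Mitochondrially encoded genes, another abundant class, were at 5.74% to 6.13% and 5.18% to 5.92%, with overlap. The adult heavy chains *Myh1*, *Myh2*, *Myh4* and *Myh7*, which are not members, were at 1.018% to 1.045% and 0.892% to 1.015%. Their groups did not overlap (p = 0.1, two-sided exact permutation test), so a lower share was not particular to the members. On quantile-normalized values the share of thick filament genes differed by 0.0015 percentage points, and that of all members differed by −0.11.

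Among 60 further genes of the sarcomere, of light chain kinases and phosphatase and of chaperone and turnover partners, 56 were measured, 2 were called higher and 6 lower (14.3%, beside 4.64% of all genes). *Tcap*, the Z-disc protein that binds the end of titin, rose from 1581, 1569.8 and 1545 to 2262, 2286 and 2268 FPKM (log2 fold change 0.55, SE 0.04, adjusted p = 0.000301). The *Tcap* to *Ttn* ratio, chosen after its values were seen, was 14.9 to 15.5 in Nogo+/+ and 23.8 to 28.7 in Nogo-/- libraries. *Fhl3*, a LIM domain gene, also rose (0.32, adjusted p = 0.0352). The titin-binding *Ankrd23* fell from 1159, 1159 and 1114 to 725, 764 and 764 FPKM (log2 fold change −0.58, adjusted p = 2.36e-05), and *Trim63*, a ubiquitin ligase of the M-band that targets thick filament proteins, fell from 123, 128 and 129 to 88.1, 86.3 and 87.7 (−0.56, adjusted p = 0.000232). Also called lower were the Z-disc genes *Pdlim3* (−0.17) and *Pdlim5* (−0.21), the thin filament regulator *Kbtbd13* (−0.61) and the small heat shock gene *Hspb8* (−0.20). *Tcap*, *Ankrd23*, *Trim63* and *Kbtbd13* passed in all 12 alternatives, whereas *Pdlim5* passed in 9, *Fhl3* in 8, *Hspb8* in 5 and *Pdlim3* in 3 of them. The actin nucleator *Lmod2* was at 69.9, 65.1 and 59.7 and 77.4, 103 and 97.4 FPKM, higher in all 3 knockouts, with a log2 fold change of 0.46 (adjusted p = 0.0555). *Ankrd1*, *Trim54* and *Cmya5* had non-overlapping groups and log2 fold changes of −0.73, 0.10 and −0.23 that did not pass.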

How the data were processed

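Gastrocnemius RNA of 3 Nogo+/+ and 3 Nogo-/- mice was sequenced as stranded polyA libraries on an Illumina HiSeq. The submitters' processing notes name CASAVA 1.8.2, cutadapt 1.4.2, STAR 2.6.1 (aligning to GRCm38.p6) and Cufflinks 2.2.1, which gave FPKM. The values deposited by the authors are FPKM of genes that reach 1 FPKM in at least 1 library, and the strand setting of the counting is not given in the sources used here. A further 6 columns of normalized log2 values were not used. Columns were assigned to groups by the heading of the study's table of changed genes, which gives no replicate number, and the replicates are separate mice.

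FPKM were quantile-normalized over 12353 genes and tested as log2(FPKM + 1) with limma 3.58.1 in R 4.3.3 (lmFit, eBayes with trend, Benjamini-Hochberg adjustment over all genes, threshold 0.05). The pseudocount of 1 understates changes of low genes. For shares and ratios, exact permutation tests (two-sided) were used. Gene models were those of GENCODE M21 (12347 identifiers matched). Depth was recovered from low FPKM of single-transcript genes, of which 94.2% to 96.8% lay within 0.1 of a whole number of fragments (20% by chance). Every member is named, and of the 3 further lists the called genes and at most 4 more by p. The adult heavy chains of the slow share and genes that overlap a member are named besides. The clock genes *Arntl* and *Dbp* were named, and the length classes and the counts without *Myh3* added, after the values were seen. The members and lists were chosen with earlier results of these data known. The test was run on simulated data first. Alternatives were another pseudocount, a level filter, other scalings, no trend, and each library left out. Tables and figures used Python 3.11.15, matplotlib 3.10.9, SciPy 1.17.1, pandas 2.3.3 and NumPy 2.4.6.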

Additional observations from a re-analysis of the deposited data

How the results depend on the processing

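Over 419 combinations of a member and an alternative, 391 kept the direction and side of the threshold, 8 gained a call, 2 lost one and 18, in 6 uncalled members, turned sign (*Acta1* and *Tnnt3*, at 0, have no sign to turn). The number of members called was 4 after scaling on genes outside the sarcomere lists (*Mylk4*, *Mybph*, *Neb*, *Tpm1*), 1 in limma without a trend and 1 to 4 when 1 library was left out. It was 1 without Sample 3, where *Mybph* was lost, and 4 without Sample 4, where *Tpm2* and *Mylpf* were gained. Without a trend, the calls among other sarcomere genes fell from 6 to 3 and over all 3 further lists from 8 to 4, and with 1 library left out they were 3 to 8 and 4 to 11. The lowest counts, 3 and 4, came without Sample 2 and without Sample 3, and the highest, 8 and 11, without Sample 4. Of all genes, 573 were called, and 188 to 434 with 1 library left out (301 without Sample 1, 188 without Sample 2, 192 without Sample 3, 378 without Sample 4), fits that also hold fewer samples. Without quantile normalization 302 genes were called higher and 234 lower, against 233 and 340.

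Sign changes came with another scaling or with 1 library left out. *Tnni2* was at −0.011 without quantile normalization, −0.046 with median-of-ratios factors and −0.051 scaled on other genes, *Tnnc2* at −0.035, −0.070 and −0.075 and *Mybpc2* at −0.056, −0.091 and −0.096 in this order. *Tnnc1* was at 0.016 without quantile normalization and at −0.12 to 0.056 with 1 library left out, above 0 without Sample 4. *Tnnt1*, at −0.0019, was at 0.060, 0.025 and 0.020 under the 3 scalings and at −0.058 to 0.087 with 1 library left out, above 0 without Samples 1, 2 or 4. *Cryab* was at −0.093 to 0.00012 with 1 library left out, above 0 only without Sample 3. On quantile-normalized values the difference in the share of thick filament genes was 0.0015 percentage points, and slow shares differed by −0.21 for troponin C, −0.51 for the essential and −0.033 for the regulatory light chain, −1.88 for myosin-binding protein C and −0.085 for the adult heavy chains, all opposite in sign to the deposited values. With 1 library left out, slow shares differed by −0.30 to 0.51 percentage points for the essential light chain, −0.098 to 0.65 for the regulatory light chain and −0.17 to 0.30 for tropomyosin. The causes were not tested. The share tests have a smallest p of 0.1, so they say nothing of stability. No paired analysis was possible because the columns carry no replicate numbers. Depth limits *Myh3*, *Tnnt2* and *Myh7b*, which rest on fewer than 400 fragments per library.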
